A study of Caenorhabditis elegans with 18 samples.

Results

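Small heat shock proteins are chaperones built around an alpha-crystallin domain. They bind unfolded proteins without using ATP and hold them until chaperones that use ATP, such as HSP70, refold them. In *C. elegans* the hsp-16 genes are silent in unstressed young worms and are switched on by heat and by other stresses that damage proteins, through the heat shock factor HSF-1 and, for part of the family, the insulin pathway factor DAF-16. The hsp-12 genes encode the smallest members, hsp-43 encodes a larger member, and sip-1 encodes a chaperone made in oocytes and embryos.

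The 10 genes hsp-12.1, hsp-12.2, hsp-12.3, hsp-12.6, hsp-16.1, hsp-16.2, hsp-16.41, hsp-16.48, hsp-43 and sip-1 were listed by name. The rule itself uses no measured value, but the list was chosen with earlier results of these data known. A probe set of the array counted as a member if its only gene symbol was 1 of these genes. This gave 9 probe sets of the 22625 on the array, for 8 of the 10 genes, because sip-1 has 2 probe sets. hsp-16.1 and hsp-16.48 have no probe set of their own. The probe set of hsp-16.1 also reads hsp-16.11, and that of hsp-16.48 also reads hsp-16.49, so that their values cannot be assigned to 1 gene and are given apart from the 9.

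The data are 18 arrays of RNA from whole wild-type N2 worms, 3 in each of 6 groups. The worms were synchronized and then fed on *E. coli* OP50, the standard laboratory food, on *Lactobacillus rhamnosus* CNCM I-3690 or on *L. rhamnosus* CNCM I-4317. RNA was taken after 3 days, from young adults, or after 10 days, from older adults. The labels number the arrays of each group from 1 to 3 and do not say whether they came from separate cultures, so that the p-values measure the spread between these arrays. Every value below is that of 1 probe set on the log2 scale, on which 1 unit is a doubling, and probe sets are not compared with each other in level. Differences were tested with limma over all probe sets of the array. A difference is named as called where its p, adjusted by Benjamini-Hochberg over all of them, was under 0.10.

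The array medians were 1.27 to 1.4, close to the floor of the scale, and arrays of 1 group correlated with r between 0.981 and 0.996. Of the members, hsp-12.1 was below the median of its array on 11 arrays, hsp-12.6 on 12, hsp-16.41 on 7, hsp-16.2 on 4 and hsp-12.3 on 1, and the files give no detection calls. RMA compresses low values, so that a log2 fold change from or to such a level is read as a lower limit of the change, and no linear fold is given for it. Of the 10-day arrays, OP50 replicate 1 and CNCM I-4317 replicate 2 stood apart from the others of their group in several members, as the values below show. Markers of tissues moved with time as well. The mean of 10 body wall muscle genes was 6.73 to 7.44 after 3 days and 4.56 to 6.21 after 10 days. In whole worms, fewer cells of a type and less RNA per cell cannot be told apart.

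The question of the 10-day arrays is how the expression of these chaperones differed between young and older worms on each food. hsp-16.2 and hsp-16.41 rose more than any other member on all 3 diets, with log2 fold changes from 4.40 to 6.32. Both probe sets of sip-1 rose on all 3 diets and hsp-12.1 fell on all 3. hsp-12.2 and hsp-12.3 fell on both *L. rhamnosus* diets, hsp-12.6 rose on CNCM I-3690 and hsp-43 rose on CNCM I-4317. On OP50, 4 of the 9 probe sets were called higher after 10 days and 1 lower, where 10.8% of all probe sets were called. On CNCM I-3690 these numbers were 5 and 3, against 29.8% of all. They were again 5 and 3 on CNCM I-4317, against 25.5%. Without OP50 10 days replicate 1, 8 of the 9 were called on OP50. The share of all probe sets called in that fit is not given here, and the 10.8% is that of the full fit. The median log2 fold change of the 9 probe sets was 0.63 on OP50, 1.19 on CNCM I-3690 and 0.75 with CNCM I-4317, and that of all probe sets was 0.02, 0.04 and 0.03. These member counts and medians include sip-1 at both its probe sets. With 1 probe set for each of the 8 genes, the medians were 0.62, 0.76 and 0.70. By gene, 3 rose and 1 fell on OP50, and 4 rose and 3 fell on each *L. rhamnosus* diet.

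**Figure D1:**
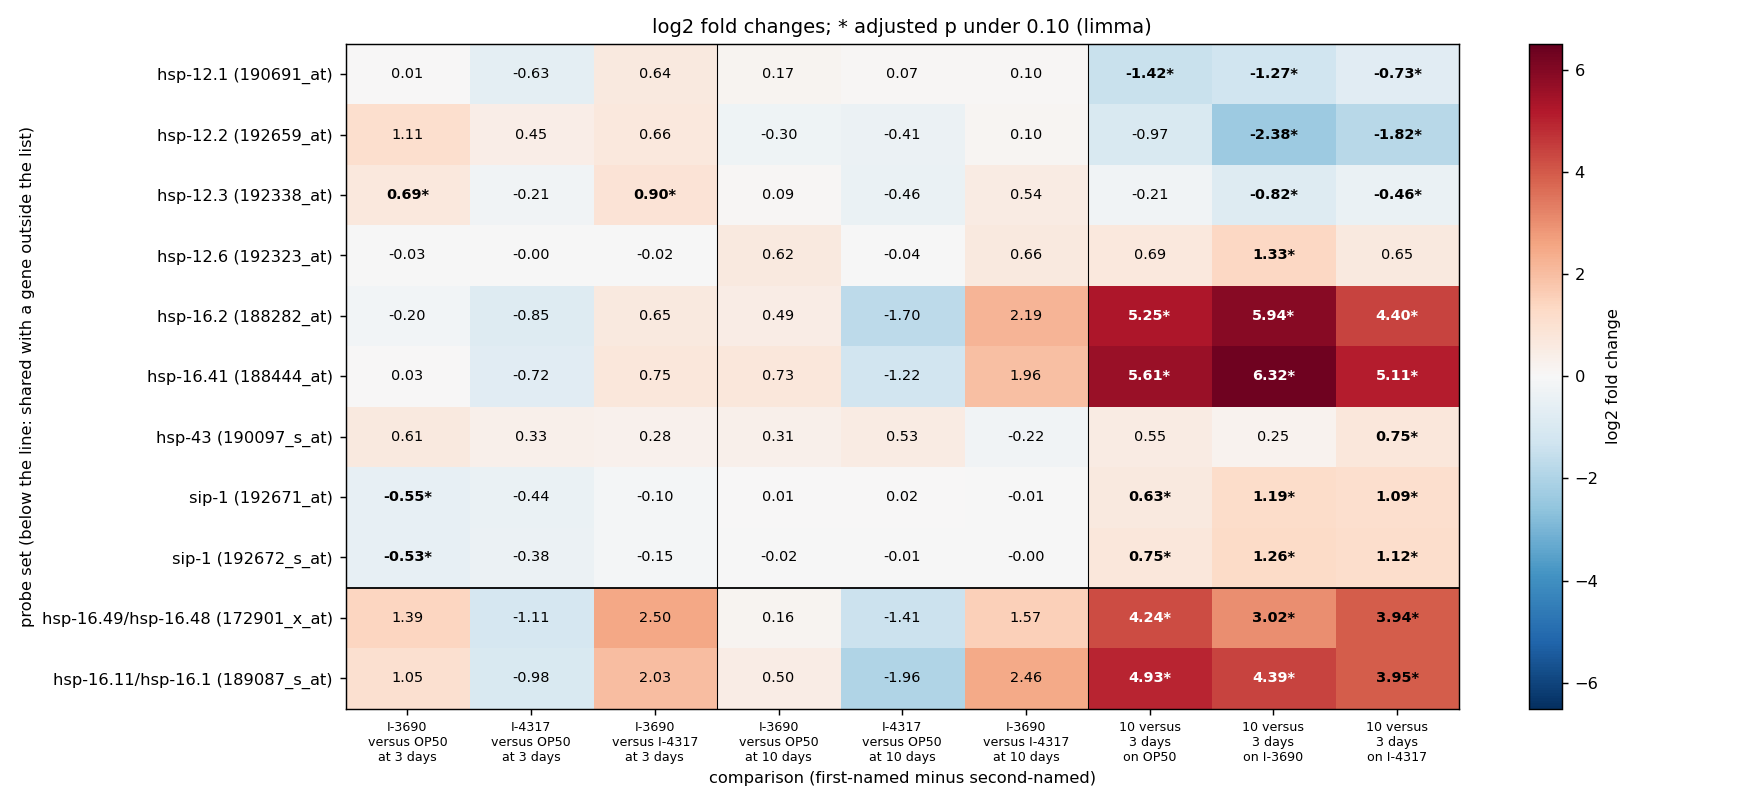
log2 fold changes of the 9 member probe sets and of the 2 shared probe sets (rows) in 9 comparisons (columns), first-named group minus second-named, with an asterisk where limma's adjusted p was under 0.10. The hsp-16 probe sets stand out in the 3 columns of 10 versus 3 days, with values from 3.02 to 6.32, and no probe set has an asterisk in the 3 diet columns at 10 days.

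The hsp-16 genes encode the strongly stress-inducible members of the family. hsp-16.2, whose promoter is widely used in worms as a reporter of stress, was at 1.60, 3.25 and 1.26 on OP50 after 3 days and at 5.91, 7.85 and 8.08 after 10 days. On CNCM I-3690 it was at 2.67, 1.94 and 0.89 after 3 days and at 7.61, 8.32 and 7.38 after 10 days. On CNCM I-4317 it was at 1.31, 0.86 and 1.37 after 3 days and at 7.34, 3.00 and 6.41 after 10 days. Within each diet, the 3 arrays of 10 days were above the 3 arrays of 3 days, and only CNCM I-4317 replicate 2 after 10 days, at 3.00, was below any 3-day array of another diet (OP50 replicate 2, at 3.25). The log2 fold change was 5.25 on OP50 (standard error 0.86, adjusted p = 0.000866), 5.94 on CNCM I-3690 (adjusted p = 0.000114) and 4.40 on CNCM I-4317 (adjusted p = 0.00161), from a level below the array median on 4 of the 9 arrays of 3 days. The 3 changes were not shown to differ. The widest gap, the change on CNCM I-3690 minus that on CNCM I-4317, was 1.54 (95% confidence interval -1.04 to 4.11, adjusted p = 0.966).

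hsp-16.41, the neighbour of hsp-16.2 in the RefSeq annotation of the worm genome (WBcel235), followed the same course. It was at 0.36, 2.54 and 0.55 on OP50 after 3 days and at 5.21, 7.44 and 7.62 after 10 days. On CNCM I-3690 its values were 1.95, 1.28 and 0.29 after 3 days and 7.77, 7.73 and 6.97 after 10 days. On CNCM I-4317 they were 0.42, 0.22 and 0.64 after 3 days and 6.88, 3.29 and 6.43 after 10 days. Here all 9 arrays of 10 days were above all 9 arrays of 3 days. The log2 fold changes were 5.61 on OP50 (standard error 0.82, adjusted p = 0.00031), 6.32 on CNCM I-3690 (adjusted p = 4.13e-05) and 5.11 on CNCM I-4317 (adjusted p = 0.000324). The 7 arrays on which hsp-16.41 was below the median of the array were all of 3 days.

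Single arrays set the size of these rises but not their call. Without OP50 10 days replicate 1 the rise on OP50 was 5.93 for hsp-16.2 and 6.38 for hsp-16.41, and without OP50 3 days replicate 2 it was 5.85 and 6.30. On CNCM I-4317, leaving out 10 days replicate 2 gave 5.69 for hsp-16.2 and 6.23 for hsp-16.41, and leaving out 10 days replicate 1 gave 3.52 and 4.44. With any single array of the compared groups left out, both genes stayed called on all 3 diets (highest adjusted p by limma 0.0109).

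Tissue lists moved with the hsp-16 genes as well. The mean of 12 intestine genes was 6.56 to 6.79 on OP50, 6.98 to 7.05 on CNCM I-3690 and 6.88 to 6.96 with CNCM I-4317 after 3 days, and 5.99 to 6.49, 6.05 to 6.11 and 6.0 to 6.34 after 10 days. With time 7, 6 and 7 of the 12 fell on the 3 diets and 1, 3 and 2 rose. OP50 10 days replicate 1, the lowest 10-day array of OP50 in hsp-16.2, was the highest 10-day array in the intestine, muscle, neuron and collagen lists. Within the 9 arrays of 10 days hsp-16.2 and the intestine list correlated with r = -0.717 and rho = -0.667, and with r = -0.3 without the 2 arrays farthest from the median. Over the 9 arrays of 3 days r was -0.377 (rho = -0.0667, and r = 0.00924). The part of these tissues in the values of the hsp-16 genes was not tested.

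**Figure D2:**
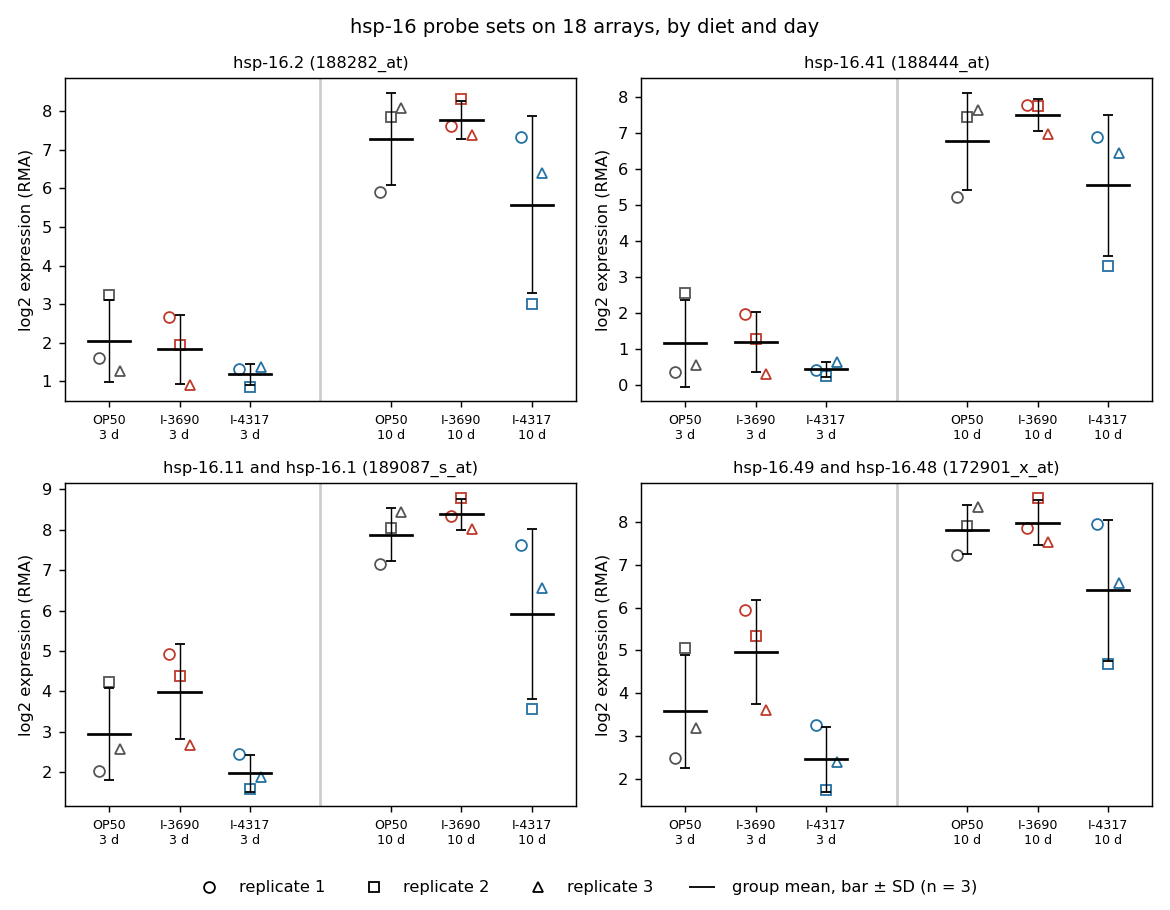
log2 expression (vertical axis) of the 4 hsp-16 probe sets on each of the 18 arrays by diet and day (horizontal axis), with the mean and SD of each group of 3 arrays. All 4 are higher after 10 days than after 3 days on the same diet, and CNCM I-4317 10 days replicate 2 is the lowest 10-day array in each panel (3.00 for hsp-16.2).

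The 2 shared probe sets also rose on every diet. The probe set of hsp-16.11 and hsp-16.1 was at 2.03, 4.23 and 2.58 on OP50 after 3 days and at 7.16, 8.05 and 8.43 after 10 days, a log2 fold change of 4.93 (adjusted p = 0.000895). It rose by 4.39 on CNCM I-3690 (adjusted p = 0.000865) and by 3.95 on CNCM I-4317 (adjusted p = 0.00232). The probe set of hsp-16.49 and hsp-16.48 rose by 4.24 on OP50, 3.02 on CNCM I-3690 and 3.94 with CNCM I-4317 (adjusted p = 0.00195, 0.00831 and 0.00158). After 3 days on CNCM I-3690 it was at 5.94, 5.33 and 3.61, all above the 3.25, 1.74 and 2.39 of CNCM I-4317, but the difference of 2.50 (standard error 0.77) did not pass the test (adjusted p = 0.328). Each shared probe set reads 2 of these 4 genes, which lie in a row in WBcel235. Which gene the signal came from is not known.

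Between diets at the same day, no hsp-16 probe set was called. After 10 days hsp-16.2 was at 7.28 ± 1.19 (SD, n = 3) on OP50, 7.77 ± 0.49 on CNCM I-3690 and 5.58 ± 2.29 with CNCM I-4317. The 3 arrays of CNCM I-3690 were above the 3 of CNCM I-4317, from 7.38 up against 7.34 down, and the difference was 2.19 (95% confidence interval 0.37 to 4.01, adjusted p = 0.616). For hsp-16.41 the same difference was 1.96 (interval 0.22 to 3.69, adjusted p = 0.64), with 6.97 the lowest value on CNCM I-3690 and 6.88 the highest on CNCM I-4317. The CNCM I-4317 mean held the low replicate 2, at 3.00 for hsp-16.2 and 3.29 for hsp-16.41. The differences without that array are not given here. CNCM I-3690 against OP50 gave 0.49 (interval -1.33 to 2.31) for hsp-16.2 and 0.73 (interval -1.0 to 2.47) for hsp-16.41 after 10 days. The intervals against OP50 span 0 and are wide, so that differences of several fold in either direction remain possible there.

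Other genes of the heat shock response were set beside the hsp-16 genes. hsp-70, a cytosolic HSP70 that is induced by heat, rose by 4.30 on OP50 (standard error 0.87, adjusted p = 0.00477), 4.70 on CNCM I-3690 (adjusted p = 0.000898) and 3.32 on CNCM I-4317 (adjusted p = 0.0125). On CNCM I-4317 after 10 days its values were 6.72, 1.88 and 4.20, with replicate 2 lowest as for hsp-16.2. Over the 9 arrays of 10 days, hsp-16.2 and hsp-70 correlated with a Pearson r of 0.949 and a Spearman rho of 0.817, and with r = 0.858 without the 2 arrays farthest from the median of hsp-70. hsp-1, the constitutive HSP70, was lower after 10 days on OP50 by 0.41 (standard error 0.11, adjusted p = 0.0355). Its log2 fold change with time was 0.17 on CNCM I-3690 and 0.09 on the other strain (adjusted p = 0.321 and 0.659). hsp-90, encoding the cytosolic HSP90, was not called in any comparison. The mRNA of the regulator hsf-1 changed with time by 0.02 on OP50 (adjusted p = 0.973), whereas it rose by 0.66 on CNCM I-3690 (adjusted p = 0.00614) and by 0.92 on CNCM I-4317 (adjusted p = 0.000648). The test of the difference between CNCM I-4317 and OP50 did not pass for hsf-1 (0.89, adjusted p = 0.188).

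The list of the heat shock factor and cytosolic chaperones, of which 14 of 16 genes were measured, had few calls beyond these. On OP50 1 gene rose (hsp-70) and 1 fell (hsp-1). On CNCM I-3690 3 rose (hsp-70, hsf-1 and the HSP70 cofactor bag-1, 0.36, adjusted p = 0.024) and the DNAJ co-chaperone dnj-19 fell by 0.29 (adjusted p = 0.0858), and on CNCM I-4317 2 rose (hsp-70 and hsf-1). The medians of the list were 0.07, 0.15 and 0.07. No gene of the list was called between diets at either day. Of 8 chaperones of the mitochondria and the endoplasmic reticulum none rose with time, and 1 fell on OP50, 4 on CNCM I-3690 and 3 with CNCM I-4317, among them the protein disulfide isomerase pdi-2 on all 3 diets (-0.56, -1.32 and -1.27). After 10 days 3 of the 8 were lower on CNCM I-3690 than on OP50, namely pdi-2 (-0.70), the endoplasmic reticulum HSP70 gene hsp-3 (-0.60) and the calreticulin gene crt-1 (-0.60), with adjusted p = 0.0924, 0.0392 and 0.0486. Against OP50, 2 were lower on CNCM I-4317, pdi-2 (-0.69, adjusted p = 0.0773) and enpl-1 (-0.49, adjusted p = 0.0834).

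The hsp-12 genes did not share 1 course. hsp-12.1 was at 2.0, 2.25 and 1.39 on OP50 after 3 days and at 0.98, 0.13 and 0.26 after 10 days. On CNCM I-3690 it was at 1.97, 1.94 and 1.77 and then at 0.67, 0.59 and 0.61, and on CNCM I-4317 at 1.01, 1.28 and 1.46 and then at 0.60, 0.55 and 0.43. The groups of 3 and 10 days did not overlap on any diet. It fell by 1.42 on OP50 (standard error 0.21, adjusted p = 0.000339), by 1.27 on CNCM I-3690 (adjusted p = 0.000339) and by 0.73 on CNCM I-4317 (adjusted p = 0.0214). All 9 arrays of 10 days were below the median of the array, so that the falls end at the floor of the scale. After 3 days hsp-12.1 was at 1.25 ± 0.22 (SD, n = 3) on CNCM I-4317 and at 1.88 ± 0.44 on OP50, a difference of -0.63 that did not pass the test (adjusted p = 0.337).

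hsp-12.2 had its highest group mean after 3 days on CNCM I-3690, at 6.54, 6.44 and 5.92, and was at 4.16, 3.74 and 3.86 after 10 days on that diet. On CNCM I-4317 it went from 6.09, 5.48 and 5.34 to 3.49, 4.41 and 3.55. On OP50 it was at 5.42, 5.12 and 5.03 after 3 days and at 6.07, 3.74 and 2.85 after 10 days, so that 1 array of 10 days, replicate 1, was above all 3 arrays of 3 days. It fell by 2.38 on CNCM I-3690 (standard error 0.53, adjusted p = 0.00359), and on CNCM I-4317 it fell by 1.82 (adjusted p = 0.0229). The value on OP50 was -0.97 (adjusted p = 0.354), and without OP50 10 days replicate 1 it was -1.89 (adjusted p = 0.000654). The 3 falls were not shown to differ, as the change on CNCM I-3690 minus that on OP50 was -1.41 (95% confidence interval -3.01 to 0.19, adjusted p = 0.446).

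The muscle list moved with hsp-12.2. The mean of the 10 body wall muscle genes was 6.73 to 6.87 on OP50, 7.14 to 7.44 on CNCM I-3690 and 6.81 to 7.21 with CNCM I-4317 after 3 days, and 4.56 to 6.21, 5.30 to 5.82 and 4.98 to 5.42 after 10 days. OP50 10 days replicate 1 was the highest 10-day array both in the muscle list, at 6.21, and in hsp-12.2. With time, 8 of the 10 muscle genes fell on OP50 and all 10 on each *Lactobacillus* diet. Over the 9 arrays of 3 days hsp-12.2 and the muscle list correlated with a Pearson r of 0.989, a Spearman rho of 0.983 and r = 0.971 without the 2 arrays farthest from the median, and over those of 10 days with 0.870, 0.917 and 0.630. Other lists also moved with hsp-12.2, such as that of 12 intestine genes after 10 days (r = 0.924, rho = 0.933, and 0.758 without 2 arrays). In each day, 77 such relations of the 9 member and 2 shared probe sets with 7 tissue lists were computed. Whether the share of muscle tissue or of another tissue has a part in the values of hsp-12.2 was not tested.

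hsp-12.3 was the only member called between the 2 *Lactobacillus* strains. After 3 days it was at 2.98, 3.25 and 2.85 on CNCM I-3690, above the 2.19, 2.53 and 2.30 on OP50 and the 2.23, 1.83 and 2.32 on CNCM I-4317, without overlap. It was higher on CNCM I-3690 than on OP50 by 0.69 (standard error 0.17, 1.62-fold, adjusted p = 0.0368) and than on CNCM I-4317 by 0.90 (1.87-fold, adjusted p = 0.0779). Both calls depended on single arrays. That against OP50 (0.58 to 0.79 over all alternatives) was lost without OP50 3 days replicate 3 (adjusted p = 0.113) and without CNCM I-3690 3 days replicate 1 (0.143) or replicate 2 (0.199), and that against CNCM I-4317 (0.75 to 1.0) was lost without CNCM I-3690 3 days replicate 1 (adjusted p = 0.329) or replicate 2 (0.472) and without CNCM I-4317 3 days replicate 2 (0.397) or replicate 3 (0.257). The latter was also lost with only the arrays of the groups compared (adjusted p = 0.3) and with the replicate number as a block. The mean of 12 neuron genes lay in the same order, at 2.76 to 2.88 on CNCM I-3690, 2.55 to 2.65 on OP50 and 2.55 to 2.64 on CNCM I-4317, although no neuron gene was called in these comparisons. hsp-12.3 and the neuron list correlated with r = 0.906 and rho = 0.85 over the 9 arrays of 3 days (r = 0.857 without the 2 arrays farthest from the median) and with r = 0.482 and rho = 0.467 (r = 0.458) over those of 10 days. The part of nervous tissue in this difference was not tested.

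After 10 days hsp-12.3 was at 2.28, 2.17 and 2.19 on CNCM I-3690, at 2.12, 2.03 and 2.24 on OP50 and at 1.91, 1.86 and 1.25 on CNCM I-4317. It fell with time on CNCM I-3690 by 0.82 (adjusted p = 0.00194) and on CNCM I-4317 by 0.46 (adjusted p = 0.0693), and its change on OP50 was -0.21 (adjusted p = 0.576). The fall on CNCM I-4317 was lost without 3 days replicate 1 (-0.41, adjusted p = 0.193), 3 days replicate 3 (-0.36, 0.211) or 10 days replicate 3 (-0.25, 0.329). It was also lost with only the arrays of the groups compared (adjusted p = 0.202), with median centring (0.12) and with eBayes trend and robust settings (0.101). The 3 arrays of CNCM I-4317 were below those of both other diets after 10 days, by 0.46 against OP50 and by 0.54 against CNCM I-3690, and neither difference passed the test (adjusted p = 0.318 and 0.47).

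hsp-12.6, a known target of DAF-16 that lies beside hsp-12.3 in WBcel235, moved the other way. All 9 arrays of 3 days were between 0.52 and 0.87, below the median of the array. After 10 days it was at 0.96, 1.4 and 1.88 on OP50, at 2.23, 2.24 and 1.62 on CNCM I-3690 and at 2.14, 0.80 and 1.17 on CNCM I-4317. The rise on CNCM I-3690 was 1.33 (standard error 0.28, adjusted p = 0.00219), and the values on OP50 and CNCM I-4317 were 0.69 (adjusted p = 0.171) and 0.65 (adjusted p = 0.122). Without OP50 10 days replicate 1 the value on OP50 was 0.91 (adjusted p = 0.0649), and without CNCM I-4317 10 days replicate 2 that on CNCM I-4317 was 0.93 (adjusted p = 0.0284). The change on CNCM I-3690 was not shown to differ from that on OP50 (0.64, 95% confidence interval -0.19 to 1.48) or on CNCM I-4317 (0.68, interval -0.15 to 1.52). The log2 fold change of daf-16 itself with time was 0.22 on OP50 and 0.05 on CNCM I-3690 (adjusted p = 0.383 and 0.851), and it rose by 0.49 on CNCM I-4317 (adjusted p = 0.00961).

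**Figure D3:**
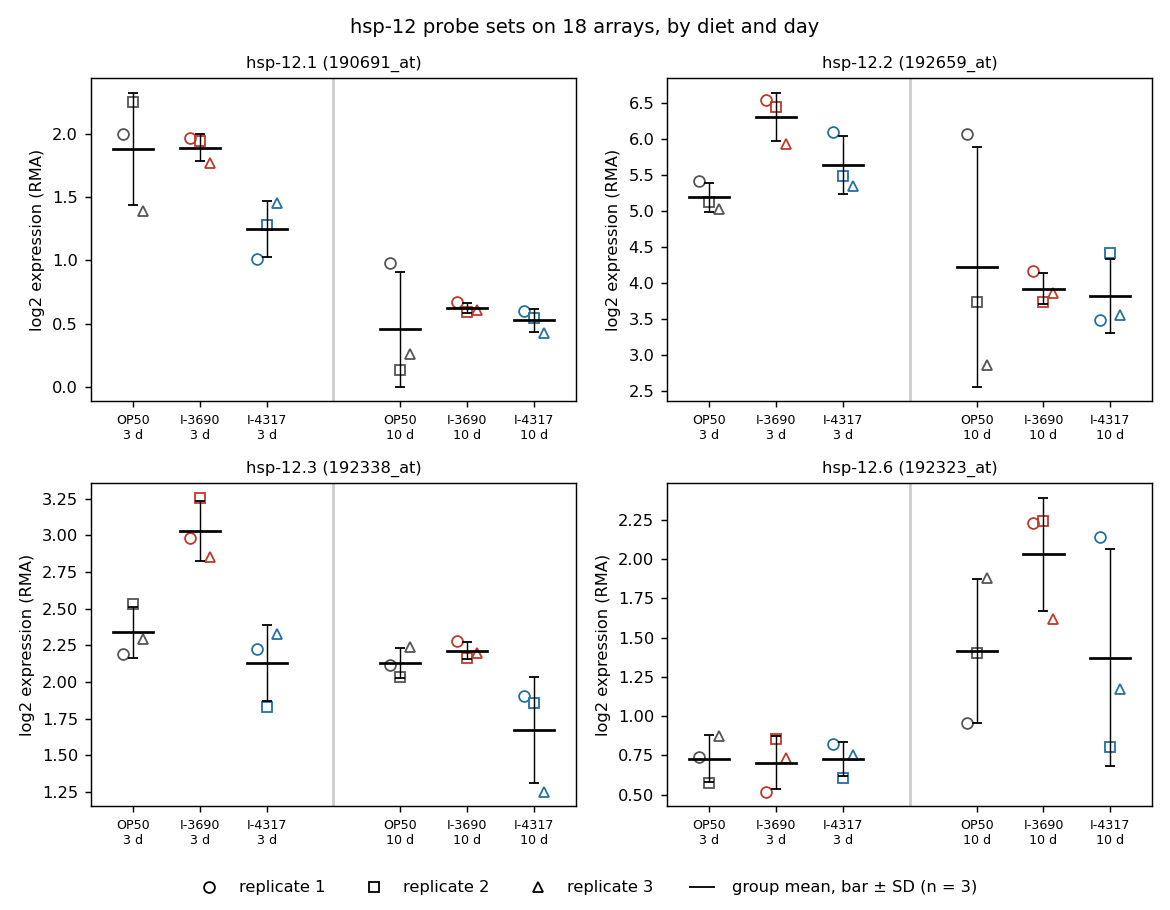
log2 expression (vertical axis) of the 4 hsp-12 probe sets on each array by diet and day (horizontal axis), with group means and SD of 3 arrays. hsp-12.1 falls on each diet, hsp-12.2 has 1 high 10-day array on OP50 (6.07), hsp-12.3 is highest after 3 days on CNCM I-3690 (2.85 to 3.25), and hsp-12.6 is below 0.90 on every 3-day array.

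sip-1 varied little between arrays of a group. Its first probe set was at 10.64, 10.93 and 10.71 on OP50 after 3 days, at 10.17, 10.17 and 10.30 on CNCM I-3690 and at 10.20, 10.24 and 10.52 on CNCM I-4317. After 10 days it was at 11.25, 11.51 and 11.42 on OP50, at 11.33, 11.41 and 11.49 on CNCM I-3690 and at 11.50, 11.44 and 11.30 on CNCM I-4317. All 9 arrays of 10 days were above all 9 of 3 days, and after 3 days the 3 arrays of OP50 were above all arrays of both *Lactobacillus* strains. After 3 days it was lower on CNCM I-3690 than on OP50, by -0.55 (standard error 0.11, adjusted p = 0.0146), and the second probe set gave -0.53 (adjusted p = 0.0146). On CNCM I-4317 the values against OP50 were -0.44 and -0.38 and did not pass (adjusted p = 0.188 and 0.246). Without CNCM I-4317 3 days replicate 3 they were -0.54 and -0.49 and passed (adjusted p = 0.0337 and 0.0464). CNCM I-3690 minus CNCM I-4317 was -0.10 (95% confidence interval -0.34 to 0.13) and -0.15 (interval -0.38 to 0.08).

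After 10 days sip-1 was at or near the highest value of each array. Its second probe set held the highest value of the array on all 9 arrays of 10 days and on 0 of 3 days, and the first was at most 0.30 below it. Its highest value was 11.72, and other probe sets reached higher values on 3-day arrays, up to 11.96 on CNCM I-4317 replicate 1. Whether the sip-1 probe sets were saturated was not tested. The rises may therefore be lower limits, and the closeness of the diets after 10 days may be that of a measure near its upper end.

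With time sip-1 rose by 0.63 and 0.75 at its 2 probe sets on OP50 (adjusted p = 0.0015 and 0.000271), by 1.19 and 1.26 on CNCM I-3690 (adjusted p = 1.79e-06 and 7.13e-07) and by 1.09 and 1.12 on CNCM I-4317 (adjusted p = 4.66e-06 and 2.75e-06). After 10 days the diets lay within 0.02 of each other at the first probe set, with intervals of -0.22 to 0.25 for CNCM I-3690 and -0.21 to 0.26 for CNCM I-4317 against OP50. The rise on CNCM I-3690 minus that on OP50 was 0.56 and 0.52, nearly all of it from the gap between these diets after 3 days, and it did not pass the test over all probe sets (adjusted p = 0.141 and 0.163). It passed at both probe sets without CNCM I-3690 3 days replicate 3 (adjusted p = 0.0702 and 0.0544).

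Oocyte genes moved with sip-1. The mean of 21 oocyte and eggshell genes was 8.41 to 8.46 on OP50, 7.98 to 8.18 on CNCM I-3690 and 8.08 to 8.36 with CNCM I-4317 after 3 days, and it was 8.49 to 8.74, 8.63 to 8.74 and 8.69 to 8.77 after 10 days. After 3 days 7 of the 21 were lower on CNCM I-3690 than on OP50, such as the eggshell gene cpg-2 (-0.47, adjusted p = 0.0268). With time 3 rose on OP50, 20 on CNCM I-3690 and 18 with CNCM I-4317. Over the 9 arrays of 3 days the second probe set of sip-1 correlated with the oocyte list at r = 0.954 and rho = 0.933 (r = 0.956 without the 2 arrays farthest from the median), and with the list of 22 sperm genes at r = -0.995 and rho = -0.983 (r = -0.991). The sperm list was at 3.28 to 4.35 on OP50, 5.96 to 7.07 on CNCM I-3690 and 4.99 to 6.72 with CNCM I-4317 after 3 days. After 10 days it was at 1.47 to 1.87, 1.47 to 4.04 and 1.47 to 3.79. Once each group mean was subtracted, r over the 18 arrays was 0.845 with the oocyte list and -0.394 with the sperm list. The relations within the 10-day arrays alone are not given here. The mean of 11 embryo genes stayed close to the floor in all groups (1.15 to 1.45). The part of the germ line in the values of sip-1 was not tested.

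hsp-43, a larger member of the family, was called with time on 1 diet only. It was at 4.02, 3.85 and 3.83 on OP50 after 3 days and at 4.10, 4.66 and 4.57 after 10 days, at 4.69, 4.47 and 4.36 and then 4.89, 4.73 and 4.65 on CNCM I-3690, and at 4.31, 4.45 and 3.93 and then 5.54, 4.56 and 4.83 on CNCM I-4317. It rose on CNCM I-4317 by 0.75 (standard error 0.21, adjusted p = 0.0175), and this call was lost with cyclic loess normalization (adjusted p = 0.14). The values on OP50 and on CNCM I-3690 were 0.55 (adjusted p = 0.141) and 0.25 (adjusted p = 0.471), and without OP50 10 days replicate 1 that on OP50 was 0.72 (adjusted p = 0.0514). After 3 days all arrays of CNCM I-3690 were above those of OP50, by 0.61 on average, without passing the test (adjusted p = 0.126), and without CNCM I-3690 3 days replicate 3 the difference of 0.68 passed (adjusted p = 0.0938). Over the 9 arrays of 3 days hsp-43 correlated with the sperm list at r = 0.932 and rho = 0.933 (r = 0.88 without the 2 arrays farthest from the median), and with the muscle list at r = 0.906 and rho = 0.917 (r = 0.846). These relations did not hold over all 18 arrays, where r was -0.1 with the sperm list and -0.565 with the muscle list. Once each group mean was subtracted, r was 0.746 with the sperm list and -0.4 with the muscle list. The part of these tissues was not tested.

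**Figure D4:**
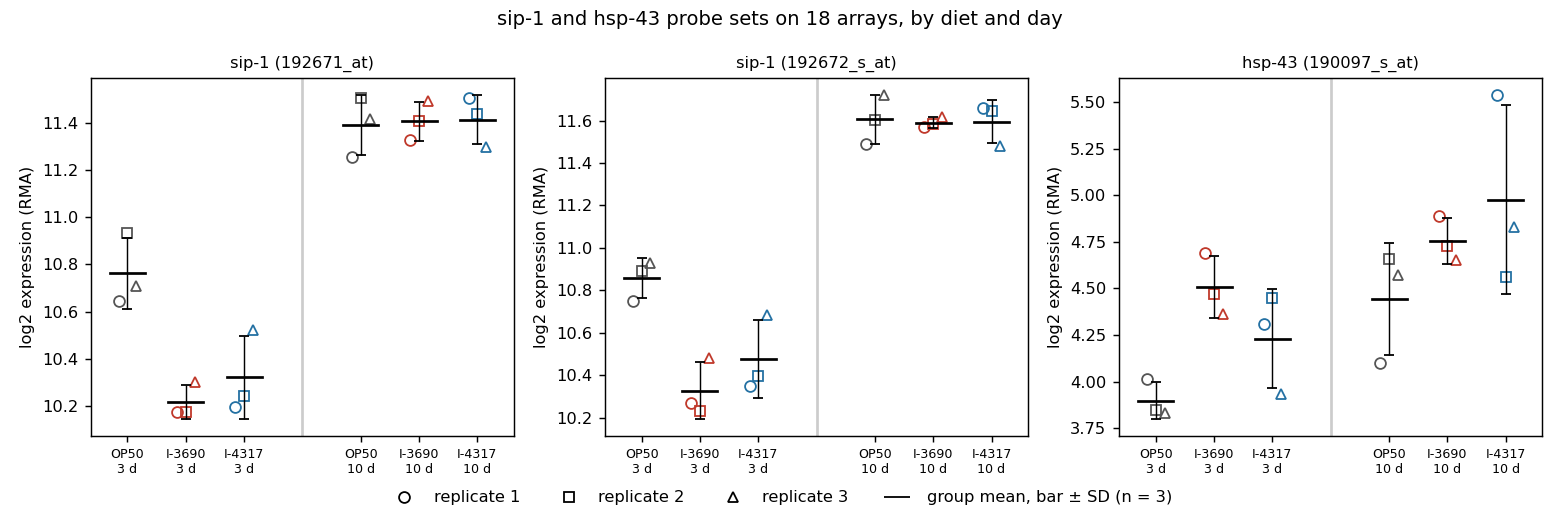
log2 expression (vertical axis) of the 2 sip-1 probe sets and of hsp-43 on each array by diet and day (horizontal axis), with group means and SD of 3 arrays. Both sip-1 probe sets show the same order, with OP50 highest after 3 days and the 3 diets together after 10 days, while the groups of hsp-43 lie between 3.83 and 5.54.

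Taking the diets by number of calls, 1 of the 9 probe sets was higher (hsp-12.3) and 2 were lower (both of sip-1) on CNCM I-3690 than on OP50 after 3 days, where 6.12% of all probe sets were called. In a fit to the arrays of these groups alone, hsp-12.2 and hsp-43 were called higher too (adjusted p = 0.0298 and 0.0484). CNCM I-4317 against OP50 after 3 days gave none by limma (0.115% of all), with 3 of the 9 at an unadjusted p under 0.05, and CNCM I-3690 against CNCM I-4317 gave 1 (0.119% of all). After 10 days none was called on CNCM I-3690 against OP50 (0.539% of all), CNCM I-4317 against OP50 (0.937%) or CNCM I-3690 against CNCM I-4317 (0.0177%), with 1, 2 and 4 of the 9 at an unadjusted p under 0.05. Nor was any member called where the changes with time were compared between diets. The shares of all probe sets called there were 0.809% for CNCM I-3690 against OP50, 0.23% for CNCM I-4317 against OP50 and 0% for the 2 strains, and 3, 3 and 0 members had an unadjusted p under 0.05. The comparisons of 1 day share the arrays of their common diet.

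**Figure D5:**
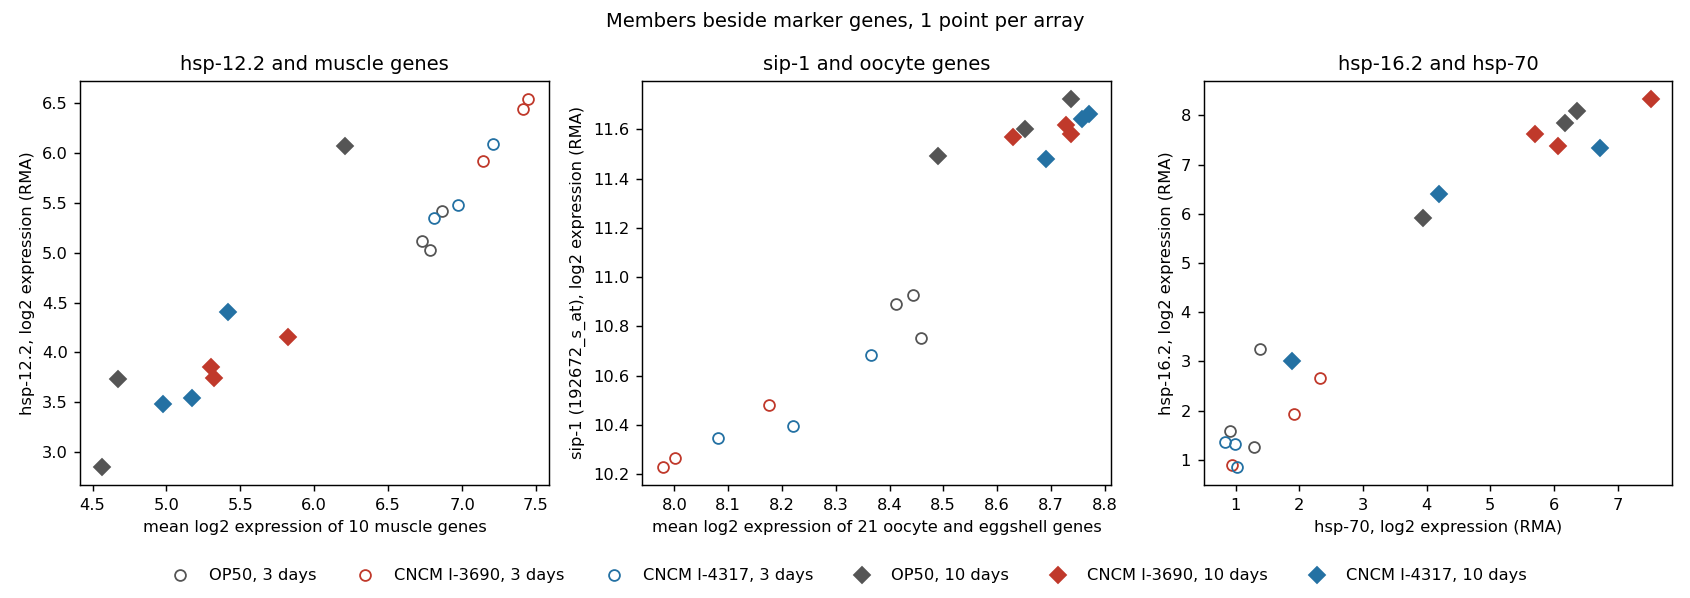
Each point is 1 of the 18 arrays, with hsp-12.2 against the mean of 10 muscle genes (left), a sip-1 probe set against the mean of 21 oocyte and eggshell genes (middle) and hsp-16.2 against hsp-70 (right), all in log2 expression. Open circles are 3 days and filled diamonds 10 days. The OP50 10-day array at 6.21 in the muscle list is the one at 6.07 in hsp-12.2, and the CNCM I-4317 10-day array at 1.88 in hsp-70 is the one at 3.00 in hsp-16.2.

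The 4 hsp-16 probe sets varied together from array to array within groups as well. Once each group mean was subtracted, the 18 arrays correlated at r = 0.976 between hsp-16.2 and hsp-16.41, 0.953 between hsp-16.2 and the probe set of hsp-16.11 and hsp-16.1, and 0.969 between the 2 shared probe sets. hsp-12.6 followed them less closely (0.622 with hsp-16.2). The 9 arrays of 10 days alone gave r = 0.862 and rho = 0.817 between hsp-12.6 and hsp-70 (0.712 without the 2 arrays farthest from the median). These relations are descriptions, over arrays that share a food and a day, and near-identical sequences can bind each other's probes. In each day 55 relations between members and 11 with hsp-70 were computed.

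The pattern of hsp-16.41 over the 18 arrays, the member whose group means spanned the widest range, was most like that of hsp-16.2 (r = 0.995), followed by glam-1 (0.974), dct-7 (0.97), C32F10.4 (0.965) and the transthyretin-like gene ttr-2 (0.964). dct-7 went from 1.98 to 6.29 on OP50, from 1.16 to 7.62 on CNCM I-3690 and from 1.01 to 6.69 on CNCM I-4317 in group means. These r rest mainly on the step between the days. Within the 9 arrays of 10 days and without the 2 arrays farthest from the median, r was 0.896 for hsp-16.2, 0.476 for C32F10.4, 0.0786 for glam-1, 0.00156 for ttr-2 and -0.281 for dct-7.

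Other genes with an alpha-crystallin domain, a list of 8 of which 6 were measured by their own probe set, went both ways. hsp-17 rose on all 3 diets, by 1.76 on OP50 (standard error 0.51, adjusted p = 0.0453), 1.55 on CNCM I-3690 (adjusted p = 0.0344) and 1.47 on CNCM I-4317 (adjusted p = 0.0516). hsp-25, whose protein is found in muscle, fell by 1.07, 1.44 and 1.37 (adjusted p = 0.0006, 1.46e-05 and 2.84e-05), and after 3 days it was higher on CNCM I-3690 than on OP50 by 0.75 (adjusted p = 0.0255). Y55F3BR.6 fell by 0.52, 0.69 and 0.91 (adjusted p = 0.0678, 0.00548 and 0.000878). ZK1128.7 fell by 0.69 on each *Lactobacillus* diet (adjusted p = 0.0305 and 0.0372), and its change on OP50 was -0.47 (adjusted p = 0.262). hsp-16.20 and hsp-16.21, which lie together elsewhere in WBcel235, stayed close to the floor, with highest values of 1.12 and 1.69, and of the 2 only hsp-16.21 was called, on CNCM I-3690 (0.58, adjusted p = 0.0471).

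DAF-16 and genes known to be induced by it, of which 13 of 14 were measured, gave 4 rises and 2 falls with time on OP50 and 6 rises and 2 falls on each *Lactobacillus* diet. The metallothionein mtl-1 rose by 3.38 on OP50, by 4.02 on CNCM I-3690 and by 3.43 on CNCM I-4317, and dod-3 rose by 2.88, 3.35 and 3.68 (adjusted p from 7.46e-07 to 0.00114 for both genes). The noncoding RNA tts-1 rose by 2.64, 5.22 and 5.18, in the same order of diets, and the lysozyme gene lys-7 rose by 3.35, 2.11 and 1.65 (highest adjusted p = 0.00125). fat-7, a fatty acid desaturase gene, changed by -1.77, -4.37 and -2.38 (adjusted p = 0.00573, 6.99e-07 and 0.000251). The medians of the list with time were 0.11, 0.19 and 0.29.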

How the data were processed

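Per the labels and the Methods, total RNA of whole worms was labelled with a 3′ IVT Express kit and hybridized to GeneChip *C. elegans* Genome Arrays. The deposited values are log2 expression per probe set and array, after RMA background correction and quantile normalization by the authors. The version of RMA is not given in the sources used here. Values ran from -0.0638 to 12. The Methods state more biological replicates per condition than the 3 arrays per group used here. The number of arrays limits the precision.

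Probe sets were named with the platform annotation (20766 with 1 symbol, 887 with several and 972 with none). All member probe sets are named. Of each other list, up to 4 called genes per comparison are named by size of change, and hsp-1, hsp-90, hsf-1 and daf-16, named as regulators or constitutive chaperones, and genes of the family list were added after their values were seen. The genes most like the member with the widest range of group means are the 5 of highest r. The members and lists were chosen with earlier results of these data known. Older symbols of 2 genes were updated.

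Linear models were fitted with limma 3.58.1 (R 4.3.3), as 1 mean per group over all 18 arrays with 12 residual and 4.09 prior degrees of freedom, for 12 comparisons adjusted separately over 22625 probe sets. The text of the paper states a stricter threshold than its tables use, and 0.10 was taken here. The alternatives were thresholds of 0.05 and 0.01, only the arrays of the groups compared, the replicate number as a block, a filter at the percentile of 40, median centring, cyclic loess, eBayes with trend and robust settings, no control probe sets, probe sets with 1 symbol only, and fits that each left out 1 array. A fit without OP50 10 days replicate 1 and CNCM I-4317 10 days replicate 2 was chosen after seeing the data. The code was tested on simulated data.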

Additional observations from a re-analysis of the deposited data

Results flagged for a closer look

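No member probe set was singled out. Among the named genes of the other lists, the change with time on CNCM I-3690 differed from that on OP50 in 3 genes by the limma test of the difference itself. For hsp-3, the endoplasmic reticulum HSP70 gene, the difference was -0.81 (standard error 0.17, adjusted p = 0.0637), from changes of -1.05 on CNCM I-3690 and -0.24 on OP50. For the noncoding RNA tts-1 it was 2.58 (standard error 0.61, adjusted p = 0.0941), from changes of 5.22 and 2.64. CNCM I-4317 against OP50 gave nearly the same value for tts-1, 2.54 (adjusted p = 0.162), and the 2 strains differed by 0.04. After 3 days tts-1 was at 3.44 on CNCM I-3690, 3.07 on CNCM I-4317 and 6.16 on OP50, and after 10 days at 8.65, 8.25 and 8.79. For fat-7 the difference between CNCM I-3690 and OP50 was -2.59 (standard error 0.52, adjusted p = 0.0583), from changes of -4.37 and -1.77. CNCM I-4317 against OP50 gave -0.27 for hsp-3 and -0.60 for fat-7 (adjusted p = 0.623 and 0.744). The changes on the 2 strains were not shown to differ for hsp-3 (-0.54, adjusted p = 0.685) or fat-7 (-1.99, adjusted p = 0.61).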

How the results depend on the processing

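Of 25 called pairs of a member probe set and a comparison, 25 kept their direction under every alternative, and 21 kept their call under every alternative other than a stricter threshold. The exceptions were the 3 calls of hsp-12.3 other than its fall on CNCM I-3690, and that of hsp-43. The cause of these changes was not tested, other than that stricter thresholds call fewer probe sets by construction.

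The 3 member calls of CNCM I-3690 against OP50 at 3 days became 0 at a threshold of 0.01, 5 in a fit to only the arrays of the groups compared (with hsp-12.2, adjusted p = 0.0298, and hsp-43, 0.0484) and 5 without the 2 arrays of 10 days that stand apart. The 1 call of the 2 strains against each other at 3 days became 0 at 0.05, at 0.01 and with only the arrays of the groups compared. With 10 against 3 days, the 5 calls on OP50 became 8 without the 2 arrays that stand apart, and the 8 on CNCM I-4317 became 4 at 0.01. The shares of all probe sets called with time in these settings are not given here, so that these counts have no background beside them. For the difference of the changes with time between CNCM I-3690 and OP50, 0 became 2 with eBayes trend and robust settings (both of sip-1, adjusted p = 0.0705 and 0.0889). With each array left out in turn, the counts ran from 2 to 4 (CNCM I-3690 against OP50 at 3 days), 0 to 2 (CNCM I-4317 against OP50 at 3 days), 0 to 1 (the 2 strains against each other at 3 days), 5 to 8 (OP50, 10 against 3 days), 7 to 9 (CNCM I-4317, 10 against 3 days) and 0 to 2 (the difference between CNCM I-3690 and OP50). The shares of all probe sets called with single arrays left out are not given beside these counts either.

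Of 45 same-numbered pairs of arrays, 15 deviated together with r above 0.1 (median r 0.0623). These pairs include arrays of different days, so that the median cannot decide whether arrays of 1 day were paired. After 3 days the pairs of the 2 strains gave 0.263, 0.0464 and 0.474. Those of OP50 and CNCM I-3690 gave 0.103, 0.0457 and 0.161, and those of OP50 and CNCM I-4317 gave -0.00743, -0.317 and -0.00993. With the replicate number as a block the count of the 2 strains against each other at 3 days went from 1 to 0 (hsp-12.3, adjusted p = 0.115), and the block changed no other count of members. Over all probe sets the counts between diets moved more, for example from 1385 to between 236 and 2812 for CNCM I-3690 against OP50 at 3 days with single arrays left out, and from 26 to 127 for CNCM I-4317 against OP50 with the block. Low signal limits hsp-12.1, hsp-12.6 and the 3-day values of hsp-16.2 and hsp-16.41.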
